A study of Mus musculus with 5 samples.

Results

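The Id, Myc, Max and Mxd proteins are basic helix-loop-helix or helix-loop-helix regulators of transcription, and 8 of their genes (Id1, Id2, Id3, Myc, Max, Mxd1, Mxd4 and Mxi1) were followed here through poly IC and ethanol treatment of mice. Every probe set that the platform annotation gave to 1 of these symbols was taken. That gave 8 probe sets, 1 per gene, of 12488 on the array, and 3 of the genes were Id genes. All 8 passed the filter on dim signals and were tested among 5583 genes. The naive signal of Mxd1 and the mean of Id1 with poly IC plus ethanol were under the filter level, and each gene passed through its other groups.

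Id proteins lack a DNA-binding domain. They bind E proteins such as the products of Tcf3, Tcf4 and Tcf12 and keep these from DNA, and bone morphogenetic protein (BMP) signalling through Smad proteins is a classical inducer of Id transcription. Myc forms a dimer with Max that binds the E-box sequence CACGTG and activates genes of growth and ribosome production. The products of Mxd1, Mxd4, Mxi1 and Mnt compete for Max, bind the same sequence and repress it through Sin3 corepressors. In myeloid cells Myc is known from proliferating precursors and Mxd1 from terminal differentiation.

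RNA of mouse peritoneal macrophages was hybridised to MG-U74Av2 arrays (Affymetrix; 5 samples with 1 array each) in a series on acute oral ethanol and gene induction by poly IC, a synthetic double-stranded RNA that mimics viral RNA. The first group held 2 pools of mice that received poly IC (0.1 mg per mouse) and ethanol (6 g per kg). The second held 2 pools that received poly IC alone, with the dose labelled for the second pool only. The reference was 1 array of untreated animals, called naive. All 4 treated pools came from 12-week-old females of a C57Bl/6 x C3H F1 cross, and the sex, age and strain of the naive animals are not stated in the labels. How many mice made up a pool and when cells were harvested is not stated in the labels. No array with ethanol alone was analysed here, so an ethanol effect on the response to poly IC and an effect of ethanol by itself cannot be told apart. With 2 pools per treated group and 1 naive array, p-values rested on the spread between the treated pools. Most of it was borrowed across genes (2 residual degrees of freedom plus 7.64 from the prior). No spread between naive samples was measured.

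Values are signals in array units. Median signals of the arrays lay between 769 and 902. The second poly IC array stood apart in the 18S ribosomal RNA control, at 66548 against 5113 to 19415 on the other arrays. Without it, 3 of the 8 genes were called in place of 4 for ethanol against poly IC (Id1, Mxd1 and Mxd4, at -1.76, -2.02 and 1.19, with adjusted p of 0.0395, 0.00819 and 0.0467), and 4 in place of 6 for poly IC against naive (Myc, Max, Mxd1 and Mxd4). Differences are log2 differences of signal + 250, given with the standard error (SE) of the limma fit, and a gene was called at a Benjamini-Hochberg adjusted p under 0.05 over all 5583 genes. The level of the brightest of 19 control probe sets with no added target was 300 to 444 by array and served as the background. Of 15 listed markers of resident peritoneal macrophages 13 were tested, and none was at or below this background on any array. With ethanol against poly IC 1 of these 13 fell (Selp, -0.41) and none rose, beside 4.8% and 5.77% of all tested genes. With poly IC against naive 2 rose (Cd14, 1.53, and Selp, 1.5) and 4 fell (Gata6, -2.23, Tgfb2, -2.10, Mertk, -0.80, and Lgals3, -0.61). In that comparison 11.7% of all tested genes were called higher and 20.1% lower. Gata6, the transcription factor gene that defines these macrophages, was 1851 and 2188 with poly IC plus ethanol, 1169 and 1531 with poly IC, and 7218 in the naive sample. Markers of other cells were present as well. The summed signal of 13 B cell markers was 247633 and 264000 with poly IC plus ethanol, 199146 and 181700 with poly IC, and 399658 in the naive sample. The 12 tested neutrophil markers summed to 46157 and 38220 with poly IC plus ethanol, 137793 and 99995 with poly IC, and 23015 in the naive sample. The 2 tested red cell markers, Hba-a1 and Hbb-b2, summed to 19032 and 10097 with poly IC plus ethanol, 17851 and 33812 with poly IC, and 1042 in the naive sample. The 5 tested T and natural killer cell markers summed to 4158 and 4893 with poly IC plus ethanol, 9674 and 6492 with poly IC, and 3669.8 in the naive sample. Gzmb alone gave 1060 and 1451 of this with poly IC plus ethanol, 5284 and 3032 with poly IC, and 189 in the naive sample. The 5 mast cell markers summed to 31821 and 28549 with poly IC plus ethanol, 61180 and 35357 with poly IC, and 22031 in the naive sample. Of this sum Hdc alone was 12709 and 11267 with poly IC plus ethanol, 28453 and 25488 with poly IC, and 2417 in the naive sample. The median log2 difference of these 5 genes was -0.01 with ethanol against poly IC and 0.03 with poly IC against naive. The 5 dendritic cell markers summed to 12330 and 14817 with poly IC plus ethanol, 13731 and 17345 with poly IC, and 14014 in the naive sample. In such bulk RNA, fewer cells of a type and less RNA per cell cannot be told apart.

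With ethanol added to poly IC, Id1, Mxd1 and Max fell and Mxd4 rose, while Id2, Id3, Myc and Mxi1 did not pass the test. The count was 3 of 8 lower and 1 of 8 higher, beside 4.8% of all tested genes called lower and 5.77% called higher. The pools of both groups did not overlap in signal for 7 of the 8 genes (all but Id3), which was also so for 54.7% of all tested genes. With poly IC alone against naive, Mxd1, Max and Myc rose and Mxd4, Mxi1 and Id2 fell. That was 3 of 8 higher, beside 11.7% of all genes, and 3 of 8 lower, beside 20.1%. The filter favoured the rise of Mxd1 over naive and the fall of Id1 with ethanol, as the lower group was under the filter level. The comparisons share arrays (the poly IC pools are in both of these, and the naive array in both comparisons against naive), so their values for a gene are given side by side and are not independent.

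**Figure D1:**
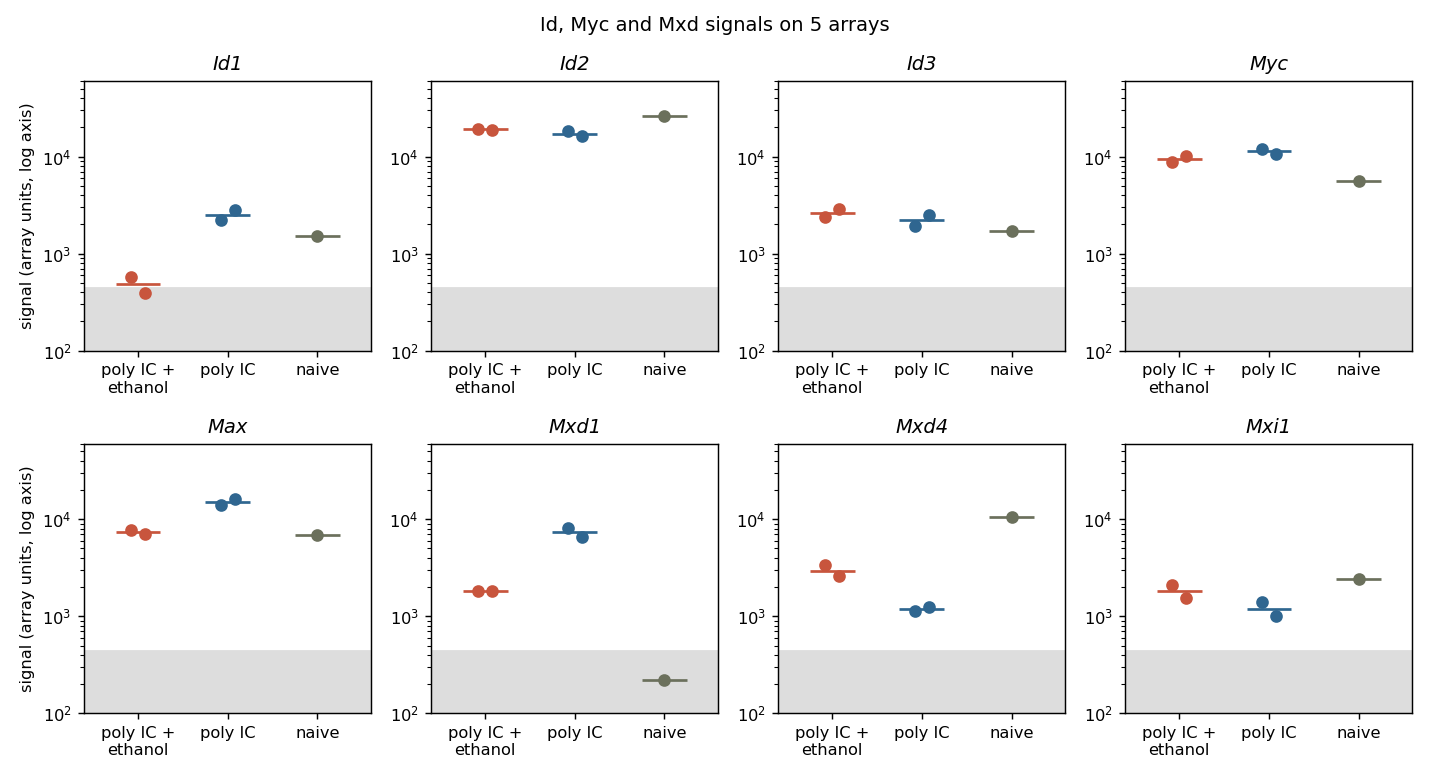
Signal of each gene (log axis, array units) for poly IC plus ethanol (2 pools), poly IC (2 pools) and naive (1 array). Points are arrays, horizontal lines are group means, and the grey band reaches up to the highest background level of any array, 444. Mxd1 rises out of the band with poly IC, and Id1 drops to its edge with ethanol, at 571 and 393.

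Id1 was the Id gene that responded to ethanol. Its signal was 571 and 393 with poly IC plus ethanol, 2206 and 2809 with poly IC, and 1502 in the naive sample. Both ethanol pools were therefore below every other array, and the second was also below the background level of its own array (444). The mean was 482 ± 126 with poly IC plus ethanol and 2508 ± 426 with poly IC (SD, n = 2 each), 5.20-fold lower, with a log2 difference of -1.92 (SE 0.24, adjusted p = 0.00181). Only 0.125% of all tested genes had a difference this low or lower. The ethanol mean was under the filter level, so the filter favoured this direction, and with no filter the adjusted p was 0.0154. Against naive, Id1 fell as well with poly IC plus ethanol (-1.27, SE 0.29, adjusted p = 0.0162), a call that was lost with no filter on dim genes (adjusted p = 0.0652). Poly IC alone gave 0.65 (SE 0.29, adjusted p = 0.125) for Id1, with a 95% interval from -0.01 to 1.30. That value passed the test when ethanol replicate 1 or ethanol replicate 2 was left out of the fit (adjusted p = 0.0388 and 0.0318).

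Id2 fell with poly IC and did not pass the test with ethanol against poly IC. This gene, which in leukocytes is known from dendritic and natural killer cell development, was 19444 and 18601 with poly IC plus ethanol, 18142 and 16292 with poly IC, and 26267 in the naive sample. All 4 treated pools lay below the naive array. Poly IC lowered Id2 by a log2 difference of -0.60 (SE 0.15, adjusted p = 0.0117), and leaving out poly IC replicate 2 ended this call (-0.53, adjusted p = 0.0753), as did a fit with arrays centred on their medians (adjusted p = 0.0672). Ethanol left a difference of 0.14 (SE 0.12, adjusted p = 0.506) against poly IC, with a 95% interval from -0.13 to 0.41. Against naive the ethanol group differed by -0.46 (SE 0.15, adjusted p = 0.0622), which passed without ethanol replicate 1 (-0.49, adjusted p = 0.0232).

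Id3 passed no test in any comparison. Its signal was 2403 and 2891 with poly IC plus ethanol, 1922 and 2520 with poly IC, and 1699 in the naive sample. The pools of the treated groups overlapped, and all of them were above the naive array. The log2 difference was 0.23 (95% interval -0.21 to 0.68) for ethanol against poly IC, 0.33 (-0.21 to 0.88) for poly IC against naive and 0.57 (0.02 to 1.11, adjusted p = 0.15) for the ethanol group against naive. That last difference was called without ethanol replicate 1 (0.69, adjusted p = 0.0404). The order of the group means thus differed between the Id genes. Id1 was highest with poly IC, though not called there against naive, and lowest with ethanol. Id2 was highest in the naive sample, and neighbouring means of Id3 did not differ beyond the test's threshold.

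**Figure D2:**
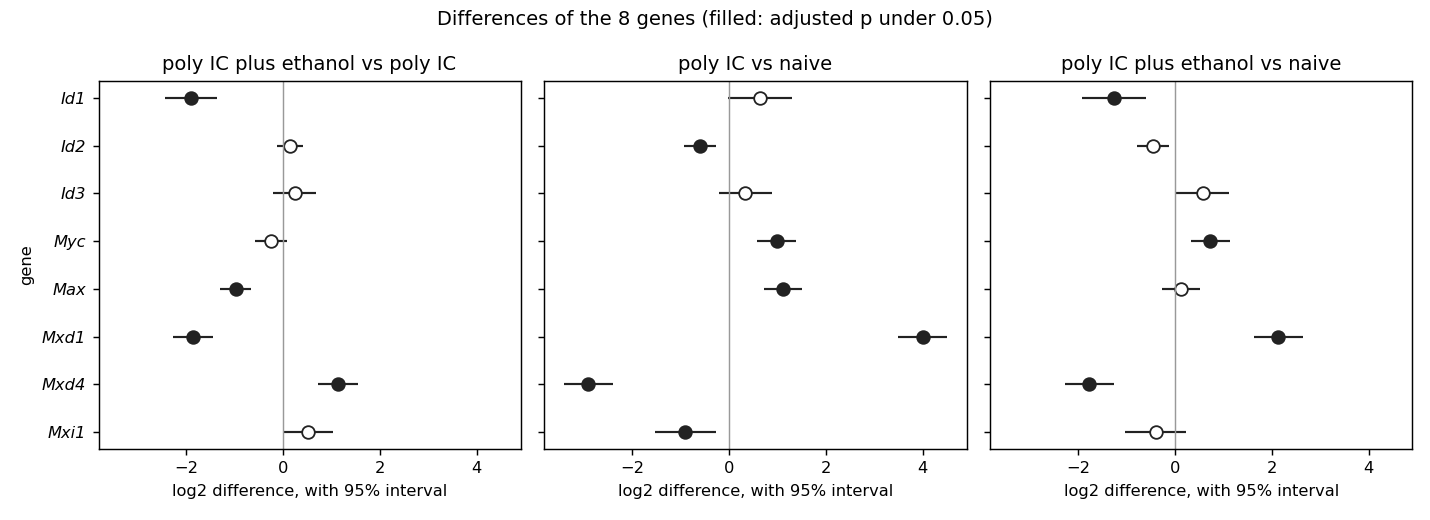
Log2 differences of the 8 genes for poly IC plus ethanol against poly IC, poly IC against naive, and poly IC plus ethanol against naive, with 95% intervals from limma. Filled points had an adjusted p under 0.05. Of the genes called in both, Max, Mxd1 and Mxd4 lie on opposite sides of 0 in the comparisons of ethanol with poly IC and of poly IC with naive, which share the poly IC pools.

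In the Myc network, Max, Mxd1 and Mxd4 were called with ethanol against poly IC, and Myc and Mxi1 were not. The RefSeq promoter windows (GRCm38.p6, 250 bases before to 50 after the start, written 5' to 3' along the gene) of the 3 genes of the network called in the ethanol comparison are printed here, with CACGTG, the site shared by Myc-Max and Mxd-Max dimers, in capitals.
Max, chr12:76962199-76962498, minus strand: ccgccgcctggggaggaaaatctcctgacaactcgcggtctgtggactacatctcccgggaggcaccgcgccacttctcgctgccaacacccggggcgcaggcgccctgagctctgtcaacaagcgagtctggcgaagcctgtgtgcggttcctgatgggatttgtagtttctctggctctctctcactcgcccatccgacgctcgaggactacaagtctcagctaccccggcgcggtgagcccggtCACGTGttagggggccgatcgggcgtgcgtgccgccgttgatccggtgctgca
Mxd1, chr6:86669110-86669409, minus strand: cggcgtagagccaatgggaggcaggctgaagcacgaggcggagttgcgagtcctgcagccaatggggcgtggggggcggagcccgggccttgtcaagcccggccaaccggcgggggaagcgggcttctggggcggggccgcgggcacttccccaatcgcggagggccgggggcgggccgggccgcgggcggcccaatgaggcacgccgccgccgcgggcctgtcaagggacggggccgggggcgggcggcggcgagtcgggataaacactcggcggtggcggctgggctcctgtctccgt
Mxd4, chr5:34187661-34187960, minus strand: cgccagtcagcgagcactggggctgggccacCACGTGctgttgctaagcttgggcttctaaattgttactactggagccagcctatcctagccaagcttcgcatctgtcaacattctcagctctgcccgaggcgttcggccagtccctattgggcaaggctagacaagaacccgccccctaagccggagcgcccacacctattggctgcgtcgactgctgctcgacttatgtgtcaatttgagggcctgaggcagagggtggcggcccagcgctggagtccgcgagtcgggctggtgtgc
The Max window held CACGTG across the start, from base -3, the Mxd4 window held it from base -219, and the Mxd1 window did not hold these letters. CACGTG reads the same on both strands, and 7.15% of 32851 windows of all genes held it. Windows were found for 6 of the 8 genes, all but Id1 and Myc, which were therefore not searched for any site. Of the 8 windows 3 were for Mxi1, and CACGTG was in 2 of the 8 windows. TTCNNNGAA, the palindromic STAT site, searched on both strands, was in none of these windows and in 8.30% of all windows. GGCGCC, a palindrome bound by Smad proteins, was in the windows of Max and Id2 and in 2 of those of Mxi1, against 11.9% of all windows. A match of letters is a description and not a bound site.

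Myc, the activating partner, was 8802 and 10066 with poly IC plus ethanol, 11857 and 10702 with poly IC, and 5584 in the naive sample. The 4 treated pools were all above the naive array, and the ethanol pools were both below the poly IC pools by a narrow margin. Poly IC raised Myc 2.02-fold (11280 ± 817 against 5584; log2 difference 0.98, SE 0.18, adjusted p = 0.0024). With poly IC plus ethanol it was also above naive (0.73, SE 0.18, adjusted p = 0.0207), a call lost with eBayes without the intensity trend (adjusted p = 0.0836). Ethanol against poly IC gave -0.25 (SE 0.15, adjusted p = 0.312) for Myc. The 95% interval of that difference ran from -0.58 to 0.07.

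Max, the obligate partner of both Myc and the Mxd proteins, was 7809.8 and 7109.5 with poly IC plus ethanol, 14013 and 16072 with poly IC, and 6813 in the naive sample. The ethanol pools lay just above the naive array and both poly IC pools were well above them. Mean signals were 7460 ± 495 with poly IC plus ethanol and 15043 ± 1456 with poly IC (SD, n = 2 each), 2.02-fold lower, with a log2 difference of -0.99 (SE 0.14, adjusted p = 0.00373). Leaving out poly IC replicate 2 ended the call (-0.89, adjusted p = 0.0585), as did a fit with eBayes without the trend (adjusted p = 0.0562). Poly IC alone raised Max 2.21-fold over naive (1.11, SE 0.18, adjusted p = 0.00108). Set against naive, the ethanol group differed by 0.12 (SE 0.18, adjusted p = 0.671; 95% interval -0.27 to 0.52).

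Mxd1, a Max partner that represses E-box genes in differentiating cells, gave the largest rise of the 8 genes with poly IC. Its signal was 1821 and 1813 with poly IC plus ethanol, 8139 and 6533 with poly IC, and 221 in the naive sample, where the background level was 302. The 3 groups were fully apart. Poly IC therefore gave a signal at least 24.2-fold above naive (fitted log2 difference 4.0, SE 0.23, adjusted p = 9.89e-07), and poly IC plus ethanol at least 6.02-fold (2.13, SE 0.23, adjusted p = 0.000136). The naive signal was under the filter level, so the filter favoured higher values in the treated groups. These 2 comparisons with naive are therefore a description. In the limma fit with no filter their adjusted p was 4.73e-05 and 0.00162. Ethanol against poly IC lowered Mxd1 4.04-fold, with means of 1817 ± 6.08 and 7336 ± 1136 (SD, n = 2 each; -1.87, SE 0.19, adjusted p = 0.000533). In that comparison 0.143% of all tested genes had a difference as low or lower. Mxd1 kept its calls in all 3 comparisons under every alternative that was run, with adjusted p up to 0.033 for ethanol against poly IC.

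Neutrophil markers are set beside Mxd1 here. Of 12 tested, 7 had a naive signal under the filter level, and 3 of them (Ltf, Mmp8 and Ngp) were also under it with poly IC plus ethanol. The filter itself therefore favoured lower values in these groups than with poly IC, and the counts are a description. Of all 12, 6 fell and none rose with ethanol against poly IC, and 8 rose and 1 fell with poly IC against naive. Of the 5 at or above the filter level in every group, 3 fell and none rose with ethanol against poly IC, beside 4.8% and 5.77% of all tested genes. With poly IC against naive 3 of these 5 rose and 1 fell, beside 11.7% and 20.1%. S100a8, a calprotectin subunit abundant in neutrophils, was 10641 and 10209 with poly IC plus ethanol, 56818 and 40341 with poly IC, and 564 in the naive sample. In the naive sample 7 of the 12 markers were at or below the background. On the ethanol arrays it was 3 and 2, and on the poly IC arrays 0 and 1. Hdc and Gzmb, from the mast cell and the T and natural killer cell lists, had the same order of groups. Each fell with ethanol against poly IC and was the 1 gene of 5 tested in its list that was called there. Over all tested genes 4.8% were called lower and 5.77% higher. Kit, Cpa3, Tpsb2, Cma1, Cd3d and Cd4 were not called in any comparison. Of the 5 T and natural killer cell genes, 2 rose and 1 fell with poly IC against naive, beside 11.7% and 20.1%. Those that rose were Gzmb (3.28) and Gzma (1.27), and Klrd1 fell (-1.12). Gzmb and Gzma were under the filter level in the naive sample, and Klrd1 was under it with poly IC. The filter favoured these directions, so they are a description. Hdc, the histamine-forming enzyme gene, was 12709 and 11267 with poly IC plus ethanol, 28453 and 25488 with poly IC, and 2417 in the naive sample. Gzmb, which encodes granzyme B, was 1060 and 1451 with poly IC plus ethanol, 5284 and 3032 with poly IC, and 189 in the naive sample. Hba-a1 was 14985 and 7794 with poly IC plus ethanol, 14514 and 26049 with poly IC, and 668 in the naive sample, with ethanol against poly IC not called (adjusted p = 0.129). The part of any of these cells in the Mxd1 signal was not tested.

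Mxd4, another repressive partner of Max, moved opposite to Mxd1 in each comparison. Its signal was 3342 and 2584 with poly IC plus ethanol, 1147 and 1249 with poly IC, and 10653 in the naive sample, again with no overlap between groups. Poly IC lowered it 8.89-fold (log2 difference -2.91, SE 0.23, adjusted p = 9.31e-06), and 0.179% of all tested genes fell as far or farther. With ethanol added, the mean was 2963 ± 536, against 1198 ± 72.1 with poly IC alone (SD, n = 2 each), a 2.47-fold rise (1.14, SE 0.19, adjusted p = 0.00598) that was lost with eBayes without the trend (adjusted p = 0.052). The ethanol pools still lay below naive (-1.77, SE 0.23, adjusted p = 0.000482).

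B cell markers moved in the direction of Mxd4. Of 13 tested, 4 rose and none fell with ethanol against poly IC (median 0.45), beside 5.77% and 4.8% of all tested genes. With poly IC against naive 11 fell and none rose (median -1.19), beside 20.1% and 11.7%. One of the 11, Fcer2a, was under the filter level with poly IC, so the filter favoured its fall. Of the 12 markers at or above the filter level in every group, 10 fell and none rose with poly IC against naive. With ethanol against poly IC 4 of these 12 rose and none fell. Cd79b, a subunit of the B cell receptor, was 14953 and 17032 with poly IC plus ethanol, 5064 and 3808 with poly IC, and 62100 in the naive sample. At most 1 of the 13 markers was at or below the background on any array. The share of B cells in the Mxd4 signal was not tested.

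Mxi1, the third Mxd-type repressor on the array, showed a smaller fall with poly IC. It was 2094 and 1528 with poly IC plus ethanol, 1408 and 997 with poly IC, and 2446 in the naive sample. The naive array was the highest and the poly IC pools were the lowest. The fall with poly IC was -0.91 (SE 0.28, adjusted p = 0.0344) and rested on the scaling and on 1 pool: the adjusted p was 0.0647 after median centring, 0.0886 after quantile normalization, 0.0969 with no filter, 0.0621 without the trend and 0.171 without poly IC replicate 2 (-0.70). Ethanol against poly IC gave 0.51 (SE 0.23, adjusted p = 0.203; 95% interval -0.01 to 1.02), which passed without ethanol replicate 2 (0.70, adjusted p = 0.0436). Poly IC plus ethanol against naive gave -0.40 (SE 0.28, adjusted p = 0.377).

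Against naive, poly IC plus ethanol left 2 of the 8 genes higher (Myc and Mxd1) and 2 lower (Id1 and Mxd4), beside 8.4% of all tested genes higher and 8.26% lower. For Mxd1 and Id1 the filter favoured these directions. Id1 was the single gene of the 8 whose ethanol mean lay on the other side of naive from its poly IC mean. Its difference for poly IC against naive was not called (0.65, adjusted p = 0.125 in the limma fit). For Id2, Max, Mxd1, Mxd4, Mxi1 and Myc the ethanol mean lay between the mean of the poly IC pools and the naive signal, and for Id3 it lay above both. These orders rest on 1 naive array and were not counted over all tested genes, so they are a description.

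**Figure D3:**
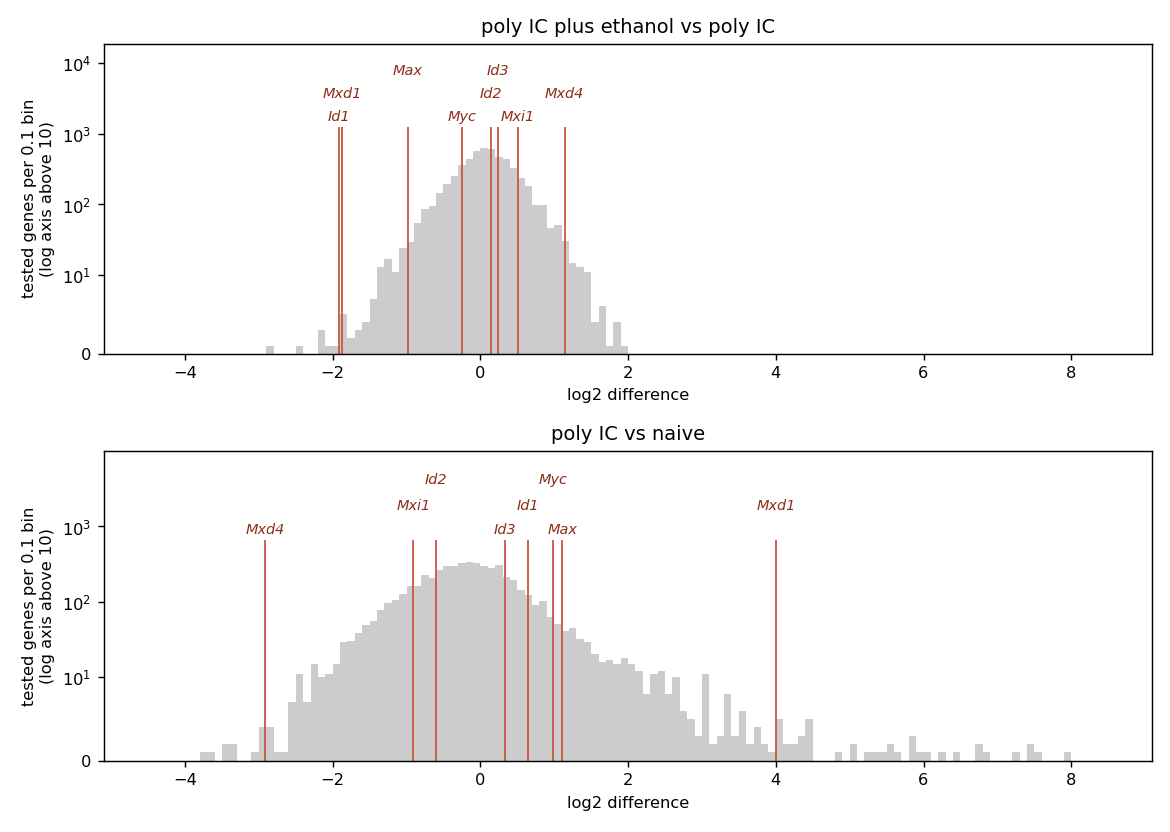
Distribution of log2 differences over 5583 tested genes (grey, genes per bin, log axis above 10) with the 8 genes as lines, for poly IC plus ethanol against poly IC (top) and poly IC against naive (bottom). Id1 (-1.92) and Mxd1 (-1.87) lie in the lower tail of the top panel, and Mxd4 (-2.91) and Mxd1 (4.0) lie in opposite tails of the bottom panel.

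The spread between pools of a group was moderate for these genes. The gap between the ethanol pools ran from 0.006 log2 units for Mxd1 to 0.40 for Mxi1, beside a median of 0.22 over all tested genes. The gap between the poly IC pools ran from 0.10 for Mxd4 to 0.41 for Mxi1, beside a median of 0.17. Mxi1 was thus the gene of the 8 with the widest gap in both groups, and the gaps of Id1 were 0.35 and 0.32.

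Other members of the network were sparse on the array above the filter, with 2 of 8 listed Myc, Max and Mxd relatives tested. Mnt, a broadly expressed repressive partner of Max, was 296 and 189 with poly IC plus ethanol, 172 and 308 with poly IC, and 2513 in the naive sample. All treated pools were below the background level. Mnt passed the filter only through its single naive signal, so it had to be lower in the treated pools. The fold was at least 6.96 with poly IC against naive and at least 6.89 with poly IC plus ethanol, given as a description. Mlx, a Max-like protein that pairs with Mxd and Mondo factors, fell with poly IC by 0.67 (SE 0.22, adjusted p = 0.0385), at 2030.1 and 2485 against 3736. Neither was called with ethanol against poly IC, where Mlx gave 0.34 (SE 0.18, adjusted p = 0.261). Of 8 tested cofactor genes 1 fell and none rose with ethanol against poly IC, beside 4.8% and 5.77% of all tested genes. Hdac2, a histone deacetylase of Sin3 complexes, was 1672 and 1424 with poly IC plus ethanol and 2809 and 2549 with poly IC (-0.71, SE 0.19, adjusted p = 0.0401). With poly IC against naive 2 of the 8 fell and none rose, beside 20.1% and 11.7%. These 2 were Sin3a (-0.79, SE 0.22, adjusted p = 0.0191) and the chromatin remodeller subunit gene Smarcb1 (-0.78, SE 0.21, adjusted p = 0.016). The acetyltransferase gene Kat2a gave -1.40 with ethanol against poly IC (adjusted p = 0.0673), at 259 and 337 with poly IC plus ethanol and 1862 and 728 with poly IC, and it passed the filter through the poly IC pools alone. Ruvbl1 gave 0.64 for the ethanol group against naive (adjusted p = 0.0639). Of the genes for Myc turnover 2 of 7 were tested, the ubiquitin ligase component Fbxw7 and the conjugating enzyme Cdc34, and neither passed in any comparison.

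Textbook target genes of Myc moved in part with ethanol. Of 23 tested Myc-activated targets, 5 fell and none rose with ethanol against poly IC (median -0.26, beside 0.07 over all genes). Among all tested genes 4.8% were called lower and 5.77% higher. The 5 targets are named next. These targets were Nop56, Srm, Hspd1, Ran and Ncl. Srm, which makes spermidine, was 2159 and 2863 with poly IC plus ethanol, 5866 and 5952 with poly IC, and 2085 in the naive sample. The ethanol pools of Srm were close to naive, as they were for Max, and the fall was -1.17 (SE 0.18, adjusted p = 0.00474). Nop56, of the box C/D ribonucleoprotein that guides ribosomal RNA methylation, was 3508 and 3792 with poly IC plus ethanol, 8177 and 7194 with poly IC, and 3634 in the naive sample (-1.02, SE 0.16, adjusted p = 0.00474 for ethanol against poly IC). The mitochondrial chaperonin gene Hspd1 fell by 0.77 (SE 0.14).

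With poly IC against naive, 8 of the 23 targets rose (Ccnd2, Srm, Nop56, Hspd1, Ran, Apex1, Ncl and Ldha) and 1, Cdk4, fell (median of the list 0.37, beside -0.16). Among all tested genes 11.7% were called higher and 20.1% lower. Ccnd2, which encodes cyclin D2, was 7196 and 8163 with poly IC against 1805 in the naive sample (1.95, SE 0.22, adjusted p = 0.000116). Cdk4, its kinase partner, was 5482 and 5828 against 8505 (-0.57, SE 0.18, adjusted p = 0.0372). With poly IC plus ethanol, Ccnd2 and the polyamine enzyme gene Odc1 were called above naive (1.40 and 1.03) and no target below it. Ccnd2 stayed at 4541 and 5906 in the ethanol pools, which was not called against poly IC (-0.54, SE 0.18, adjusted p = 0.0832). Among 4 tested genes that Myc is known to repress, the growth arrest gene Gadd45a rose with ethanol, at 17782 and 13420 with poly IC plus ethanol against 6065 and 5299 with poly IC (1.41, SE 0.17, adjusted p = 0.00154). The cell cycle inhibitor gene Cdkn1a rose with poly IC against naive (1.22, SE 0.21, adjusted p = 0.00163), and ethanol against poly IC gave -0.39 (SE 0.17, adjusted p = 0.181). Ndrg1 and Cdkn2b, the other genes of the Myc-repressed list with large statistics, gave 0.62 and 0.76 with ethanol against poly IC (adjusted p = 0.145 and 0.177). Of 11 tested markers of dividing cells, 1 rose and none fell with ethanol against poly IC (median 0.09), beside 5.77% and 4.8% of all tested genes. With poly IC against naive 1 rose and 2 fell (median -0.42), beside 11.7% and 20.1%.

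**Figure D4:**
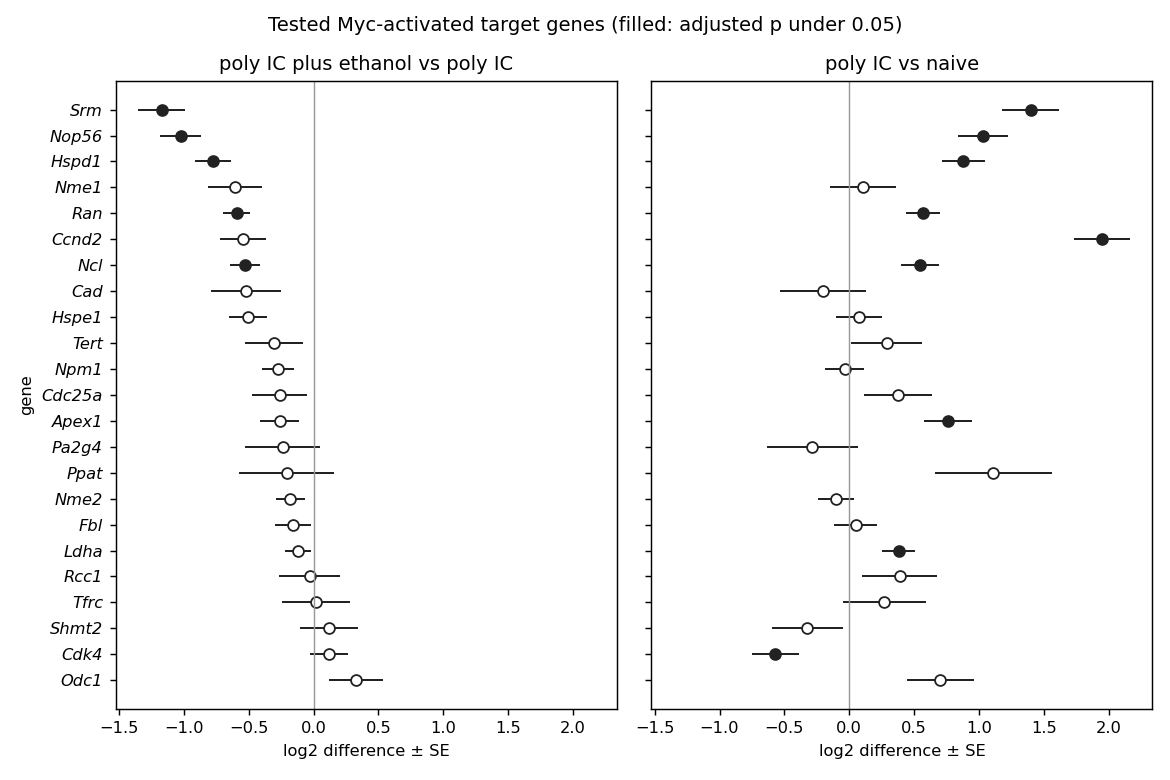
Log2 differences ± SE of the 23 tested Myc-activated target genes for poly IC plus ethanol against poly IC (left) and poly IC against naive (right), ordered by the left panel. Filled points had an adjusted p under 0.05: 5 on the left, all below 0, and 9 on the right, of which Cdk4 is the 1 below 0.

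On the Id side, 5 of 8 listed E protein and related helix-loop-helix genes were tested. With ethanol against poly IC 1 rose and none fell (median 0.28), beside 5.77% and 4.8% of all tested genes. With poly IC against naive 2 fell and none rose (median -0.62), beside 20.1% and 11.7%. The E protein genes Tcf3, Tcf4 and Tcf12 were not called with ethanol against poly IC (0.31, 0.23 and 0.28). Tcf12 fell with poly IC against naive, at 4573 and 5433 against 7904 (-0.64, SE 0.20, adjusted p = 0.0356). Lyl1, a blood-lineage factor that pairs with E proteins, was 4676 and 4915 with poly IC plus ethanol, 2369 and 2157 with poly IC, and 27938 in the naive sample. It rose with ethanol against poly IC (1.01, SE 0.15, adjusted p = 0.00443), the direction of Mxd4 and of the 4 of 13 B cell markers called there. The share of B cells in the Lyl1 signal was not tested. Hes1, a Notch-induced repressor, was 791 and 692 with poly IC plus ethanol, 1091 and 1244 with poly IC, and 1926 in the naive sample, and was called below naive with poly IC plus ethanol (-1.14, SE 0.29, adjusted p = 0.0234).

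Of 20 listed genes of BMP and transforming growth factor beta signalling, 9 were tested. With ethanol against poly IC 1 rose and none fell (median 0.10), beside 5.77% and 4.8% of all tested genes. With poly IC against naive 1 rose and 1 fell (median 0.20), beside 11.7% and 20.1%. Smad1, a BMP signal transducer, was 5815 and 5051 with poly IC plus ethanol, 2390 and 3001 with poly IC, and 2293 in the naive sample. It rose with ethanol against poly IC (0.95, SE 0.18, adjusted p = 0.0107) while Id1 fell, and no other gene of the list was called in that comparison. Eng, the coreceptor endoglin, rose with poly IC against naive, at 36691 and 39558 against 14954 (1.33, SE 0.14, adjusted p = 0.0001). With ethanol against poly IC it gave -0.40 (SE 0.12, adjusted p = 0.0629). Smad4, the common partner of receptor-activated Smads, fell with poly IC against naive (-0.63, SE 0.19, adjusted p = 0.0263). The ligand gene Bmp4 was not called with ethanol against poly IC (-0.41, adjusted p = 0.557), and its ethanol pools were far apart at 455 and 1489. The inhibitory Smad6 and Smad7 were not called in any comparison.

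The genes with the most similar profile were found by the root mean square distance over the 5 arrays between log2 values centred on each gene's mean, and are given as a description. Nearest to Id1 were Abcf2 (distance 0.18), the transcription factor gene Klf2 (0.24) and Pcolce (0.27), beside a median distance of 0.96 over all tested genes. Klf2 was 7308 and 6431 with poly IC plus ethanol, 16173 and 21387 with poly IC, and 15597 in the naive sample, the same order of groups as Id1. Nearest to Max were the inflammasome protease gene Casp1 (0.045), Ctps (0.053), which makes CTP, and Ppfibp2 (0.053). Casp1 was 6714 and 6225 with poly IC plus ethanol, 12152 and 13642 with poly IC, and 6335 in the naive sample. Nearest to Mxd1 were the interferon-gamma-induced chemokine gene Cxcl9 (0.17), Plet1 (0.25) and the uridine phosphorylase gene Upp1 (0.27), and nearest to Mxd4 were Kank3 (0.12), Dhrs3 (0.18) and Cmas (0.18). Nearest to Myc were Traf1, Ppan and Fbxw11, at distances of 0.060 to 0.063. The other lists were Ndufs1, H2-Ab1 and Lgals1 for Id2 (0.020 to 0.026), Krt2, Sec61a1 and Map1lc3a for Id3 (0.031 to 0.070), and Ulk2, Pon2 and Plxnb2 for Mxi1 (0.052 to 0.064). Genes that vary little have small distances to many others, so distances are not comparable between the 8 genes.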

How the data were processed

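Signals of 5 arrays were used, in 3 groups taken from the sample titles. Per the labels, cRNA was hybridised to MG-U74Av2 arrays and summarised by the submitters with Microarray Suite 5.0, and Data Mining Tool 3.0 is also named. The values the authors deposited are linear intensities, with a signal for each probe set, scaled globally to a target of 2500.

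Of 12488 probe sets, 66 were controls and 10833 had 1 gene symbol, which was updated by Entrez ID through a RefSeq table (10817 found). Only probe sets whose mean signal was at or above the 40th percentile of all probe sets (512) were used, and the brightest probe set of each gene was kept, leaving 5583 genes. Log2(signal + 250) was modelled in limma 3.58.1 (R 4.3.3), with a mean per group and an intensity trend in eBayes (2 residual degrees of freedom plus 7.64 from the prior). Tests were two-sided with Benjamini-Hochberg adjustment. The naive array has no spread of its own and was assumed to vary like the treated pools. Where the mean of the lower group was below the brightest unspiked control of its arrays, the fold is a lower bound against that control. The fit was tested on simulated data. The number of arrays limits the precision.

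The 8 genes and all gene lists were chosen with earlier results of these data known. Named from each list were the 3 tested genes with the largest absolute moderated statistic in a comparison, every tested gene of the Myc-Max relatives and E protein lists, and marker genes. Ran, Ncl, Ldha, Cdk4 and Smad6, and the printed promoter windows, were chosen after values were seen. Titles number the pools of both treated groups, but nothing in the labels ties equal numbers together. Promoter windows are from RefSeq on GRCm38.p6, and figures were drawn with matplotlib 3.10.9. Alternatives covered the offset, the filter, scaling, trend, probe set choice, left-out arrays and the block.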

Additional observations from a re-analysis of the deposited data

How the results depend on the processing

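No difference of the 8 genes changed direction under any alternative that was run. Of 328 repeated single-gene results, 308 kept their side of the threshold, 13 lost a call and 7 gained one. Those that changed are given beside each gene above, except that Id2 for poly IC plus ethanol against naive also passed with the 60th percentile filter (adjusted p = 0.0433) and after quantile normalization (0.0119), and that Id2 for poly IC against naive also failed with eBayes without the trend (0.0721). With eBayes without the trend, 2 of the 8 genes (Id1 and Mxd1) were called for ethanol against poly IC, in place of 4, and the counts over all genes were 86 in place of 590 there and 580 in place of 930 for poly IC plus ethanol against naive. With no filter 324 genes were called for ethanol against poly IC. With 1 treated array left out the count was 140 to 1074 for ethanol against poly IC (140 without poly IC replicate 2, 205 without poly IC replicate 1 and 1074 without ethanol replicate 1), 1159 to 2366 for poly IC against naive (in place of 1775, fewest without poly IC replicate 2) and 720 to 1521 for poly IC plus ethanol against naive (most without ethanol replicate 1). An arm left with 1 array was assumed to vary like the other groups. The cause of these changes was not tested. For ethanol against poly IC, 322 genes were higher and 268 lower, and after median centring 165 and 255. With the pool number as a replicate block on the 4 treated arrays, 4 of the 8 genes and 779 genes in all were called. Pools of equal number deviated together only weakly (correlation over genes 0.05), so the numbers are not taken as pairs.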
